A study of Mus musculus with 2148 samples.

Results

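Tuft cells are chemosensory epithelial cells that carry the cation channel Trpm5 and depend on the transcription factor Pou2f3. In the gut and airways they answer luminal signals by releasing the cytokine Il25, acetylcholine and lipid mediators (eicosanoids), and the thymic medulla holds cells of the same kind. Here, 8 listed genes of this output, of 48437 genes counted, were followed. They are Il25 (the cytokine), Il17rb (a subunit of the Il25 receptor), Chat (choline acetyltransferase, which makes acetylcholine), Alox5 (5-lipoxygenase), Alox5ap (the membrane protein that presents arachidonic acid to it), Ltc4s (leukotriene C4 synthase), Ptgs1 (cyclooxygenase 1) and Hpgds (the hematopoietic prostaglandin D2 synthase). Alox5 together with Alox5ap, and after them Ltc4s, act on the way to cysteinyl leukotrienes, and Ptgs1 and then Hpgds on the way to prostaglandin D2. The genes were taken by symbol, mapped from Ensembl gene identifiers.

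The cells were thymic epithelial cells of C57BL/6 mice, each sequenced on its own by RamDA-seq, which primes total RNA both at random and at poly(A) tails and reads transcripts over their full length. Live CD45- EpCAM+ cells were sorted as cortical (cTEC, Ly51+) or medullary (mTEC, Ly51-) cells, the latter with high or low surface MHC class II (mTEChi and mTEClo). The donors were wild-type (WT) adults, adults lacking functional Aire (Aire-KO, the allele not being given in the labels) and WT newborns. Cells of a group with the same age and sex labels were summed into a pool, which gave 13 pools in 8 groups. Shares of all cells are given here, and cell numbers under the processing. Adult WT mTEClo had 3 pools, all male, at 8 weeks (pool 1, 10.96% of all cells), 5 weeks (pool 2, 74 cells) and 4 weeks (pool 3, 66 cells). Adult WT mTEChi had 4, from males at 4 weeks (pool 1, 22.42% of all cells), 5 weeks (pool 2, 12 cells) and 6 weeks (pool 3, 82 cells) and from females at 4 weeks (pool 4, 82 cells). The other groups had 1 pool each: Aire-KO mTEClo (7.778%) and mTEChi (17.07%) from males at 5 weeks, newborn WT mTEClo (6.263%), mTEChi (8.636%) and cTEC (7.02%) at 1 day with no sex given, and adult WT cTEC (77 cells) from males at 6 weeks. The labels do not say how many mice gave a pool or whether pools were separate preparations, so p-values measure the spread between pools only.

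A cell held 203010 to 1823784 reads, with a median of 692880. Aire reached 1109.66 to 1844.59 CPM (reads per 1e6 reads on genes) in the 4 adult WT mTEChi pools and 26.1 CPM in Aire-KO mTEChi, and 26.1 to 39.5 CPM against 0.153 CPM in mTEClo. Adult WT mTEClo pool 1 stood apart, because 94.9% of its cells held reads of the female-specific RNA Xist against 10.6 to 12.2% in the other 2 pools, all of them labelled male. The level was low, with a median of 17.1 CPM per cell in pool 1. In the pool labelled female, adult WT mTEChi pool 4, it was 1108.8 CPM, and in the newborn pools 8.57 to 16.1 CPM. The source of these reads was not tested. Results that rest on adult WT mTEClo pool 1 are therefore given by pool or, by a choice made after seeing the data, also without it.

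The genes lie on GRCm38 at 14:54932695-54935837 (Il25), 14:29996135-30008896 (Il17rb), 14:32408203-32465989 (Chat), 6:116410077-116461178 (Alox5), 5:149264767-149288153 (Alox5ap), 11:50236461-50238616 (Ltc4s), 2:36230426-36252272 (Ptgs1) and 6:65117293-65144908 (Hpgds), and all 8 are protein-coding. Counting ignored strand. Of the exon bases, 3.804% in Il17rb, 13.31% in Alox5ap, 26.43% in Ltc4s and 3.811% in Ptgs1 overlap a gene on the opposite strand, and reads there cannot be told apart. Promoters were read from RefSeq (GRCm38.p6, 250 bases before to 50 after the start) for 6 of the 8 genes, all but Il25 and Alox5ap. They were searched on both strands for the octamer ATGCAAAT (reverse ATTTGCAT), the word that POU-family factors such as Pou2f3 recognise. It occurred in 1 of the 6, Hpgds, and in 570 of all 32851 promoters (1.74%). The Hpgds promoter (chr6:65144681-65144980, minus strand) is shown with the octamer in capitals, beside that of Chat (chr14:32465860-32466159, minus strand), the gene with the highest fold change below, which has no such word in this window.
Hpgds: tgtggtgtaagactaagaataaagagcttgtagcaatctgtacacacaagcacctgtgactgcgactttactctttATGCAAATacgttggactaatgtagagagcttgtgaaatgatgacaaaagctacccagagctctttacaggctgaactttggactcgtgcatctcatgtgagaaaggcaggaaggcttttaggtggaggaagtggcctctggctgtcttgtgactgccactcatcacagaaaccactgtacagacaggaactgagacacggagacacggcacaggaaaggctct
Chat: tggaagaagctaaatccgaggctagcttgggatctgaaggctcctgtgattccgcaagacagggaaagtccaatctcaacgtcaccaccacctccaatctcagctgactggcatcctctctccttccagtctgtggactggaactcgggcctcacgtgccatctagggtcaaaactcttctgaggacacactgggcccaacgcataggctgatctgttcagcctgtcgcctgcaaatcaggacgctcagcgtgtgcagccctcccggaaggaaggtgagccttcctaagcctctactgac

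The first question was where the 8 genes were expressed over the 8 groups. All 8 had their highest mean level in adult WT mTEClo and their second highest in Aire-KO mTEClo, and 7 had their lowest in newborn cTEC (Il25 had its lowest in newborn mTEChi, with 2 reads in all). Per kb of exon, the scale on which genes can be compared, the adult WT mTEClo levels ran from 95.7 ± 65.2 for Alox5 over 77.3 ± 62.6 for Alox5ap, 62.3 ± 48.4 for Ptgs1, 44.5 ± 31.3 for Ltc4s, 38.0 ± 27.4 for Il17rb, 35.8 ± 29.1 for Chat and 24.1 ± 22.5 for Il25 to 19.4 ± 13.1 for Hpgds (CPM per kb, mean ± SD, n = 3 pools). Neighbours in this order lay well within 1 SD of each other. Pool 1 was the lowest of the 3 pools for every gene. Without it the means ran from 132.2 ± 22.6 for Alox5 over 112.9 ± 16.3 for Alox5ap and 89.98 ± 10.2 for Ptgs1 to 26.8 ± 3.04 for Hpgds (n = 2 pools), and all 8 genes were still highest in adult WT mTEClo.

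The cytokine Il25 was at 1.013, 48.9 and 27.01 CPM in adult WT mTEClo pools 1 to 3, 6.16 CPM in Aire-KO mTEClo and 1.61 CPM in newborn mTEClo. It was at 0.309 to 0.848 CPM in the 4 adult WT mTEChi pools, 0.236 CPM in Aire-KO mTEChi, and 0.246 and 0.603 CPM in adult and newborn cTEC. Every mTEClo pool therefore stood above every other pool. Its receptor subunit Il17rb was expressed more widely, at 24.9, 183.6 and 213.9 CPM in adult WT mTEClo, 62.8 in Aire-KO mTEClo, 25.4 in newborn mTEClo, 18.3 to 37.0 in adult WT mTEChi and 10.8 to 17.5 in the remaining 4 pools. Pool 1 of adult WT mTEClo lay inside the adult WT mTEChi range.

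Chat was at 10.9, 234.04 and 259.6 CPM in adult WT mTEClo, 60.0 in Aire-KO mTEClo and 18.6 in newborn mTEClo. In adult WT mTEChi it was at 9.91, 0.626, 16.2 and 17.0 CPM in pools 1 to 4, against 0.218 CPM in Aire-KO mTEChi and 5.68 CPM in newborns of that sort. Among the mTEC pools, the one of Aire-KO mTEChi was lowest. Adult cTEC had 8.58 CPM and newborn cTEC 0.0890 CPM.

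Of the leukotriene genes, Alox5 was at 93.2, 477.1 and 608.55 CPM in adult WT mTEClo, 215.8 in Aire-KO mTEClo, 40.0 in newborn mTEClo and 3.13 to 40.7 in adult WT mTEChi. Alox5ap followed at 8.89, 143.9 and 176.6 CPM in adult WT mTEClo, 43.9 in Aire-KO mTEClo, 5.57 in newborn mTEClo and 0.371 to 8.06 in adult WT mTEChi, with 0.0717 CPM in Aire-KO mTEChi. Ltc4s spanned less, at 8.63, 66.6 and 60.2 CPM in adult WT mTEClo, 16.5 in Aire-KO mTEClo, 5.07 in newborn mTEClo, 5.51 to 13.5 in adult WT mTEChi and 7.19 in Aire-KO mTEChi. For all 3 genes, pools 2 and 3 of adult WT mTEClo stood above every other pool, and pool 1 did not.

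Of the prostaglandin genes, Ptgs1 was at 27.2, 321.5 and 377.5 CPM in adult WT mTEClo, 74.6 in Aire-KO mTEClo, 21.5 in newborn mTEClo and 3.75 to 33.1 in adult WT mTEChi. Hpgds was the most even of the 8, at 29.2, 186.3 and 158.7 CPM in adult WT mTEClo, 118.8 in Aire-KO mTEClo, 29.6 in newborn mTEClo, 17.6 to 66.6 in adult WT mTEChi, 41.0 in Aire-KO mTEChi, 39.1 in newborn mTEChi, and 26.3 and 22.8 in adult and newborn cTEC. It also had a read in 87.1% of newborn cTEC cells (exact 95% interval 80.3 to 92.1%) against 67.8% of adult WT mTEClo cells (81.4% without pool 1). Counted as the share of cells with 5 or more reads, only 5 genes were highest in adult WT mTEClo, while Il17rb was highest in adult WT mTEChi, Alox5 in Aire-KO mTEClo and Hpgds in newborn cTEC. Without pool 1, 7 genes were, all but Alox5.

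**Figure D1:**
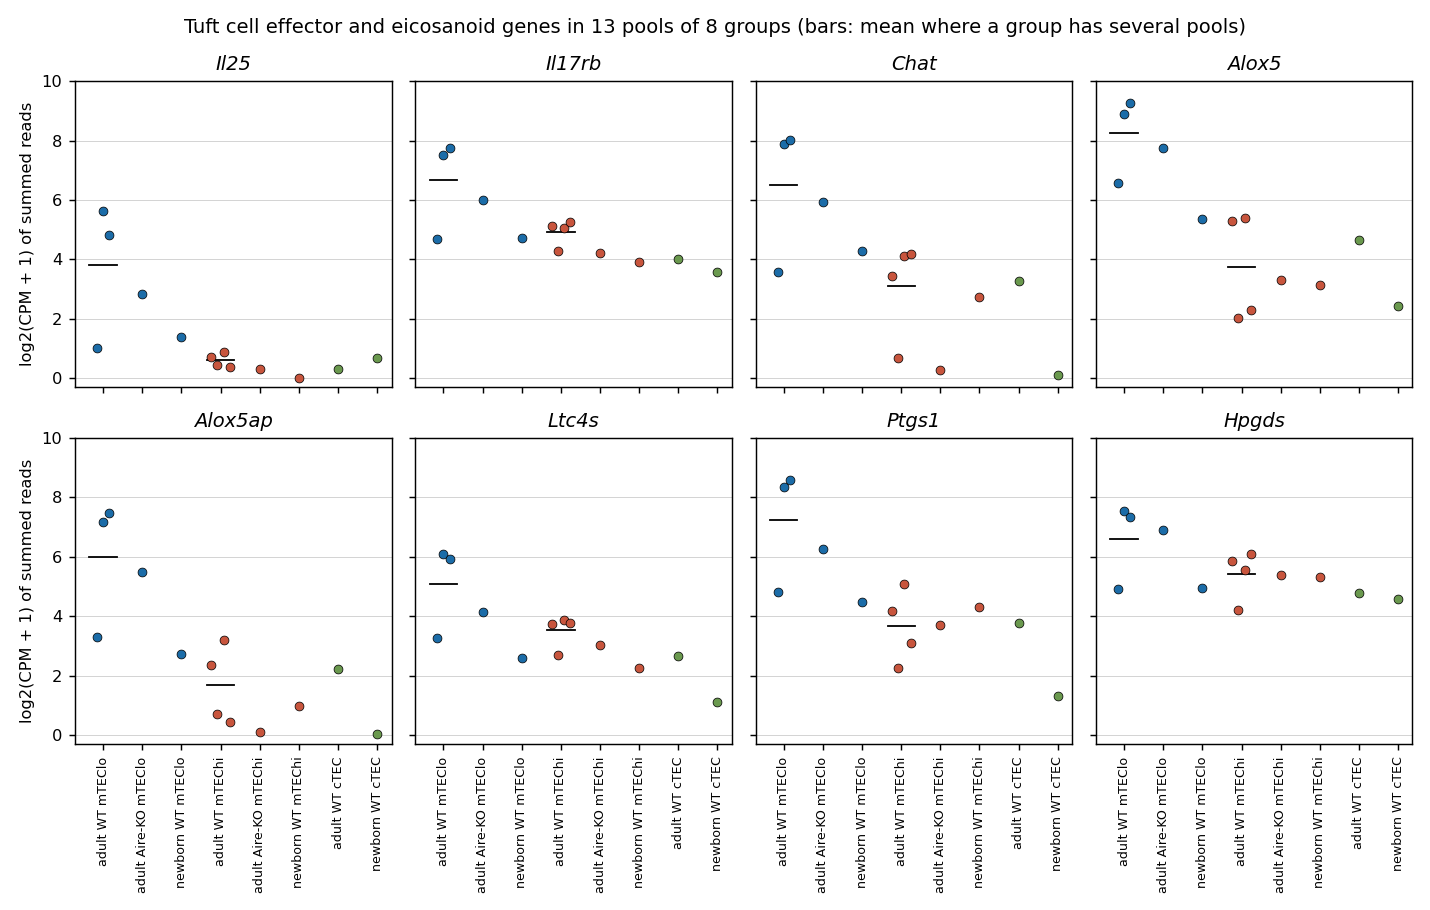
Level of each gene in the 13 pools, as log2(CPM + 1) of summed reads (y axis) by group (x axis). Each point is a pool, blue for mTEClo, red for mTEChi and green for cTEC, and bars are means of groups with several pools. In adult WT mTEClo 1 of the 3 points, pool 1, lies far below the other 2 for every gene.

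The mTEClo and mTEChi of adult WT mice were then compared by a fit over all 11 mTEC pools. In mTEChi, 6 of the 8 genes were lower. On the log2 scale, with SE and edgeR adjusted p, the changes were -5.64 ± 1.08 (adjusted p = 0.0163) for Il25, -5.14 ± 1.23 (0.0323) for Alox5ap, -4.33 ± 1.02 (0.0308) for Alox5, -4.10 ± 0.93 (0.0274) for Ptgs1, -4.04 ± 1.10 (0.0473) for Chat and -2.34 ± 0.59 (0.0373) for Il17rb. Ltc4s (-2.17 ± 0.61, adjusted p = 0.0525) and Hpgds (-1.56 ± 0.59, adjusted p = 0.108) did not pass. Over all 39971 genes tested, 4.13% were called lower and 7.54% higher, and the median log2 fold change was 0.30, against -4.07 for the 8 genes. In such sums, fewer cells of a type and less RNA per cell cannot be told apart. The fold changes stayed below 0 in every leave-one-out fit, but the calls did not hold: 8 genes passed without adult WT mTEClo pool 1, 0 without pool 2 and 1 without pool 3, and 1, 4, 3 and 1 without mTEChi pools 1 to 4. The share of all genes called lower in these fits ran from 1.834 to 4.023%.

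No gene at all was called between Aire-KO and WT mTEClo among 39971 tested (0% called; 3.55% at an unadjusted p under 0.05 by edgeR, and 0.2177% called higher and 0.4653% lower by DESeq2). The log2 fold changes of the 8 genes ran from -1.97 ± 1.60 for Il25 to 0.00 ± 0.90 for Hpgds, each with an adjusted p of 1, and none was called without WT pool 1 either. The same held for mTEChi (0% called; 4.366% at an unadjusted p under 0.05, and 0.1301% called higher and 1.809% lower by DESeq2). There Chat (-5.54 ± 2.2103) and Alox5ap (-5.42 ± 2.36) had the lowest values, each with an edgeR adjusted p of 0.925, while the other 6 lay between -1.14 and -0.07. All 4 WT mTEChi pools held more Chat and more Alox5ap than the Aire-KO pool, and for how many of all genes this held was not counted. Chat was called by DESeq2, and Alox5ap with plates in place of pools, where 1.105% of all genes were called higher and 3.528% lower. The 4 Aire-KO mTEChi plates came from 1 pool, so plates are not independent units.

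Newborn and adult WT cells gave no called gene in either sort (0% called of 39971; in mTEClo 9.935% and in mTEChi 2.011% at an unadjusted p under 0.05 by edgeR, and 2.064% called higher and 2.574% lower, and 0.03002% higher and 0.05754% lower, by DESeq2). In mTEClo all 8 genes had log2 fold changes below 0 in newborn cells, from -4.31 ± 2.18 (Alox5ap) to -2.10 ± 1.03 (Hpgds), with edgeR adjusted p from 0.416 to 0.627. Without adult WT mTEClo pool 1, Il17rb alone was called (0.6352% of all genes higher and 0.7016% lower). With plates in place of pools 7 were (all but Chat), among 6.199% of all genes higher and 7.812% lower. The 5 newborn mTEClo plates came from 1 pool, so plates are not independent units. In mTEChi the values ran from -1.79 (Alox5ap) to 0.32 (Ptgs1) for the 7 genes other than Il25, all at an edgeR adjusted p of 1. Il25 had the lowest fitted value, -4.65 ± 2.06, also at an edgeR adjusted p of 1. It rested on 2 reads in newborn mTEChi, a ratio of CPM of 0.0322 to the adult sum (exact 95% interval 0.00389 to 0.117, which covers counting error only).

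Levels were then taken apart by cell. A cell was Trpm5-high at 100 CPM or more of Trpm5, which 17.8% of mTEClo cells reached. Few cells lay near the limit: 12 held 50 to 100 CPM and 2 held 100 to 200 CPM, with the nearest at 93.4 and 102.4 CPM, while 96.46% of the Trpm5-high cells held 1000 CPM or more. Adult WT mTEClo pools 1 to 3 had 10, 39 and 37 such cells (4.61, 52.7 and 56.1% of the pool). Aire-KO mTEClo had 23 (14.9%) and newborn mTEClo 4 (3.23%). In the other sorts, Trpm5-high cells made up 5.48% of adult WT mTEChi (34 cells), 0.296% of Aire-KO mTEChi (1 cell), 5.26% of newborn mTEChi (9 cells), 2 of 77 adult cTEC and 0 of the newborn cTEC, which allows a share of up to 2.16%. The order of the mTEClo pools by share of Trpm5-high cells thus set pool 1 apart from pools 2 and 3 as the 8 genes did.

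In mTEClo, all 8 genes were higher in Trpm5-high cells than in the other cells of the same pool, where 9.84% of 21620 genes were called higher and 10.7% lower. The test set the sums of both kinds of cell against each other within 4 pools, the 3 adult WT pools and the Aire-KO pool. Chat rose most, from 0.287, 1.82 and 0.355 CPM in other cells to 276.02, 462.5 and 498.2 CPM in Trpm5-high cells of the adult WT pools, and from 0.237 to 347.3 CPM in Aire-KO. The log2 fold change was 9.79 ± 0.58 (edgeR adjusted p = 0.000935). Il25 went from 0.102, 0.437 and 0.267 to 23.8, 96.6 and 51.6 CPM, and from 0.975 to 31.1 CPM in Aire-KO (log2 7.16 ± 0.68, adjusted p = 0.00237). Il17rb went from 7.63 to 11.9 CPM in the 3 WT pools to 356.7 to 408.6 CPM, and from 12.3 to 305.2 CPM in Aire-KO (5.35 ± 0.22, adjusted p = 0.000703). No pool overlapped between the kinds of cell for any of these 3 genes. The share of all genes without such overlap was not counted.

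Of the eicosanoid genes, Alox5ap showed the widest gap, at 214.2, 282.8 and 334.5 CPM in Trpm5-high cells of adult WT pools 1 to 3 and 253.4 in Aire-KO, against 0.656, 2.76, 5.20 and 0.316 CPM in the other cells (log2 7.77 ± 0.75, edgeR adjusted p = 0.00239). Ptgs1 was close to it, at 628.4 to 719.5 CPM in the 3 WT pools and 420.4 CPM in Aire-KO, against 3.10, 2.89, 6.04 and 2.59 CPM (7.60 ± 0.22, adjusted p = 0.00044). Both genes stayed under 10 CPM in the other cells of these 4 pools, while Ptgs1 was at 13.3 CPM in the other cells of newborn mTEClo, 13.3 CPM in those of adult WT mTEChi and 12.1 CPM in those of Aire-KO mTEChi. Alox5 was at 1069.9, 927.98, 1149.7 and 967.3 CPM, and was also present in the other cells at 54.04, 18.8, 20.8 and 59.4 CPM (5.11 ± 0.44, adjusted p = 0.00178). Ltc4s went from 3.65, 5.04, 4.80 and 3.60 to 132.8, 127.2, 111.2 and 78.6 CPM (4.89 ± 0.18, adjusted p = 0.000619). Hpgds had the smallest fold, from 12.3, 31.8, 14.975 and 62.3 to 449.7, 338.4, 290.97 and 390.07 CPM (4.06 ± 0.46, adjusted p = 0.00385). Per kb of exon, Trpm5-high mTEClo cells held most Alox5 (245.2 CPM per kb), Alox5ap (198.8) and Ptgs1 (154.1) and least Il25 (58.6) and Hpgds (52.2), and the order of these 5 was the same without pool 1.

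The median log2 fold change of the 8 genes was 6.26, against -0.09 over all genes tested. All 8 were called without any one of the pools, pool 1 of adult WT included. They were not all called when cells were split by Pou2f3 at 10 CPM in place of Trpm5; in that split Chat, Alox5ap and Ltc4s passed, with 0.4494% of all genes called higher and 0.1702% lower. The 4 Trpm5-high newborn mTEClo cells were too few to test, and held 784.8 CPM of Alox5 and 429.2 CPM of Chat against 6.46 and 0.117 CPM in the other 120 newborn mTEClo cells.

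**Figure D2:**
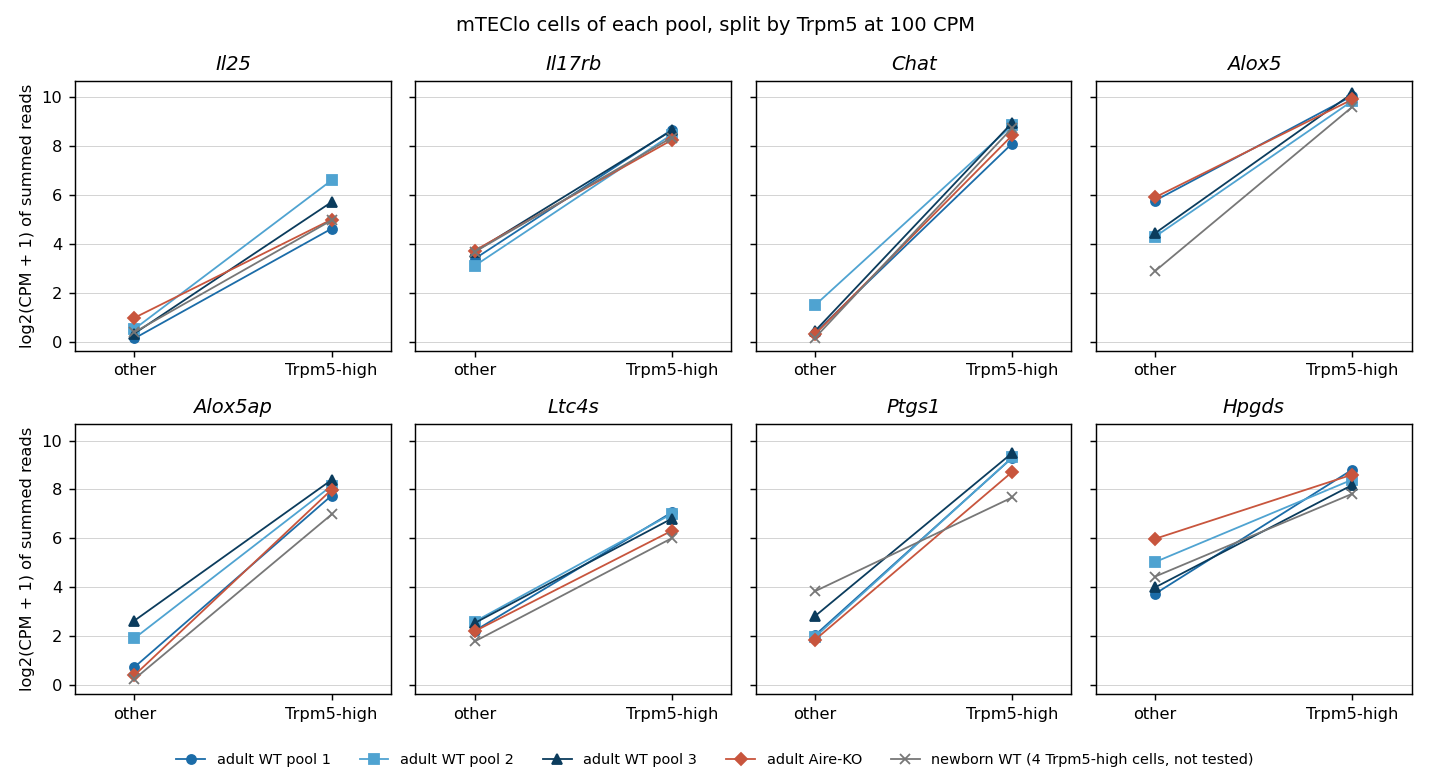
Level of each gene, as log2(CPM + 1) of summed reads (y axis), in the other and the Trpm5-high cells (x axis) of each mTEClo pool, joined by a line per pool. Every line rises for every gene, with Chat and Alox5ap starting near 0 and Alox5 and Hpgds starting higher.

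The Trpm5-high cells were then read for other tuft cell genes. All 12 tuft markers other than Trpm5 were higher in them, among them the phospholipase Plcb2 of taste signalling (log2 9.65 ± 0.65, edgeR adjusted p = 0.00107), the adaptor Sh2d6 (9.25 ± 0.78, 0.00168) and the kinase Bmx (9.17 ± 0.79, 0.00178), with a median of 8.20. Summed over these 12, they held 9937.5 to 12502 CPM in the 4 pools against 131.7 to 247.7 CPM in the other cells. Markers of other cells of the medulla and cortex were lower or were not called. All 6 immature mTEC markers were lower (among them Krt14 by -5.66 ± 1.07 and Pdpn by -5.36 ± 1.08), as were 3 of 6 mature mTEC markers (the transcription factor Fezf2 by -2.75 ± 0.24, and the MHC class II pathway genes Cd74 by -2.43 ± 0.34 and H2-Aa by -2.41 ± 0.19) and 3 of 6 cTEC markers (Dll4, Prss16 and Ly75). The calls of these 4 lists were the same without adult WT mTEClo pool 1, except that Ly75 was not called.

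Several members of the group, above all Alox5, Alox5ap, Ltc4s and Hpgds, are also known from mast cells and other blood cells, so markers of these were read in the same cells. Of 8 mast cell markers, Cpa3, Mcpt4, Cma1 and Ms4a2 were at 0 in the Trpm5-high cells of all 4 pools, Kit was higher (log2 3.00 ± 0.54, edgeR adjusted p = 0.0143), and the list summed to 375.6 to 819.3 CPM against 52.6 to 354.2 CPM, nearly all of it Kit. No macrophage or dendritic cell marker of 4 tested was called (55.8 to 72.9 CPM in all against 28.9 to 166.8), and none of the 2 thymocyte markers tested (3.92 to 11.5 CPM against 8.00 to 14.6). Of the B cell list, Cd79b was higher (4.32 ± 0.52, adjusted p = 0.00448), and the list summed to 37.8 to 105.04 CPM against 1.904 to 15.9 CPM. Of the markers of group 2 innate lymphoid cells, the main responders to Il25, Il1rl1 was higher (6.19 ± 1.38, 0.0263) and Gata3 lower (-4.49 ± 1.02, 0.0283), and the list summed to 73.96 to 101.4 CPM against 119.4 to 187.5 CPM. Il1rl1 was low in Trpm5-high cells of the WT pools, at 1.84 to 3.48 CPM, against 25.6 CPM in those of Aire-KO. In the other cells of these pools it was at 0 to 0.361 CPM. Of 4 stromal markers 3 were tested and none was called. The calls of these lists were the same when pool 1 of adult WT mTEClo was left out, except that the macrophage marker Lyz2 was lower (-4.48 ± 0.41, 0.00598).

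The other genes of the same pathways did not rise with the 8 as a body. Among 13 tested genes of Il25 and type 2 signalling, 2 were higher, Il4ra and the succinate receptor Sucnr1 (16.2 to 26.3 CPM in the Trpm5-high cells of the WT pools against 0.0672 to 0.139, log2 8.14 ± 0.83, edgeR adjusted p = 0.00283). The decoy receptor Il13ra2 (-4.75 ± 1.23, 0.0402) and the alarmin Il33 (-4.24 ± 1.14, 0.0447) were lower, and the median was 0.13. Among 14 tested genes of acetylcholine handling, the choline transporter-like genes Slc44a2 and Slc44a4 and the nicotinic receptor subunit Chrna10 (6.51 ± 0.68, 0.00292) were higher. Lower were 4 others: the esterases Ache and Bche (-3.52 ± 0.64, 0.0146), the muscarinic receptor Chrm4 (-5.34 ± 0.81, 0.00855) and Chrnb2. The vesicular acetylcholine transporter gene Slc18a3 and the choline transporter gene Slc5a7 had too few reads to test. Without adult WT mTEClo pool 1, Il33, Slc44a4 and Chrnb2 were not called, and Chrnb4 was lower. Slc18a3, which lies in the Chat locus, was then tested and was higher (7.76 ± 1.77, edgeR adjusted p = 0.0448). It overlaps Chat on the same strand and shares no exon bases with it. Reads of Chat introns that fall on Slc18a3 cannot be told apart from its own.

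Among 28 tested eicosanoid enzymes outside the group, the phospholipases Pla2g4a and Pla2g16, the lipoxygenase Alox8 and the glutathione transferase Mgst3 were higher. Lower were 6: the lipoxygenases Alox15 (139.20 to 257.35 CPM in other cells against 1.26 to 41.7 in Trpm5-high cells, log2 -5.41 ± 0.94, edgeR adjusted p = 0.0127) and Alox12, the leukotriene C4 processing enzymes Ggt5 (-4.96 ± 0.93, 0.0161) and Dpep1 (-4.19 ± 1.17, 0.0497), and Fam213b and Hpgd, the last of which breaks prostaglandins down. Dpep1 was near the floor on both sides, at 0.487 to 1.31 CPM in other cells and 0 to 0.231 CPM in Trpm5-high cells. The median log2 fold change of the 28 enzymes was -0.42. Of 9 tested eicosanoid receptors, 1 was higher, the prostaglandin E2 receptor Ptger1, and 6 were lower, among them the prostaglandin D2 receptor Ptgdr (-6.87 ± 1.07, 0.00915) and the leukotriene B4 receptors Ltb4r2 (-3.33 ± 0.34, 0.00282) and Ltb4r1 (-2.60 ± 0.51, 0.018). The median was -1.84. Without adult WT mTEClo pool 1, Alox8, Alox12, Dpep1, Ptger1, Ptger4 and Ltb4r1 were not called, and the gamma-glutamyl transferase gene Ggt1 was higher.

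The 8 genes were mostly found in the same cells. Of the Trpm5-high mTEClo cells, 82.3% held reads of all 8 (93 cells) and 97.3% of at least 6, and after thinning each cell to 200000 reads 73.5% (83 cells) still held all 8. The other mTEClo cells had a median of 3 genes with a read, and 3 of them held all 8. Depth was close to equal, at medians of 614137 and 586573 reads. At 5 or more reads, 77 Trpm5-high cells held all 8 and none of the others held 6 or more. At 100 CPM or more, the 86 adult WT Trpm5-high cells held a median of 7 of the 8 genes and 84 of them at least 3, while of the other adult WT mTEClo cells 19.93% (54 cells) held 1 and none held 2. Without adult WT mTEClo pool 1, 85.4% of the Trpm5-high mTEClo cells (88 cells) held reads of all 8, and 75.7% after thinning. Libraries were made one cell to a well and no doublet caller was run.

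**Figure D3:**
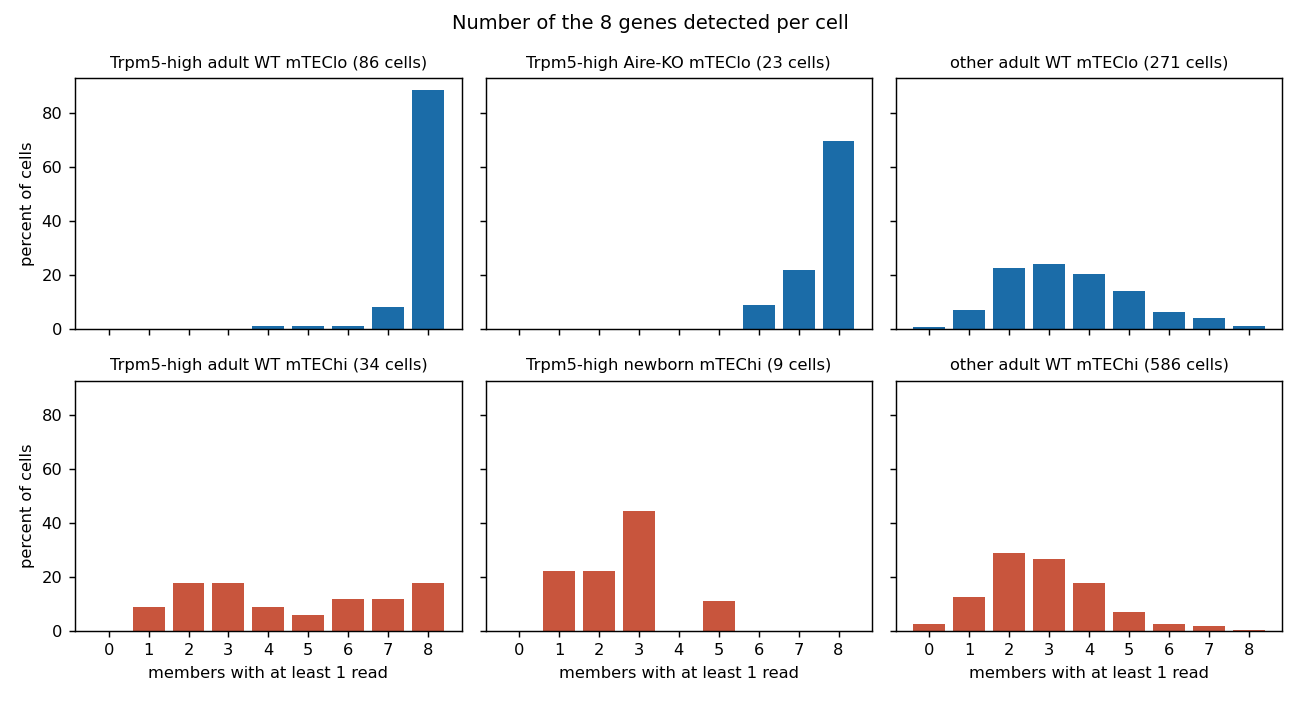
Percent of cells (y axis) by the number of the 8 genes with at least 1 read (x axis), in 6 kinds of cell, blue for mTEClo and red for mTEChi. Adult WT and Aire-KO Trpm5-high mTEClo cells pile up at 8, and Trpm5-high mTEChi cells spread from 1 to 8.

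Along Trpm5 itself, most of the difference in mean level lay, for all 8 genes, between the mTEClo cells at 10 to 100 CPM of Trpm5 and those at 1000 CPM or more. Mean Chat was 0.168 CPM in the 33.7% of cells with no Trpm5 read, 0.360 CPM in the 32.91% with up to 10 CPM of Trpm5, 0.940 CPM in the 15.59% (99 cells) with 10 to 100 CPM and 487.7 CPM in the 17.17% with 1000 CPM or more. The share of cells with a Chat read was 6.07, 16.7, 31.3 and 100% in these ranges, and 75% in the 4 cells between the last pair. Alox5ap had means of 0.337, 0.548, 3.31 and 302.8 CPM in the same 4 ranges, and Alox5 of 40.6, 41.2, 36.7 and 1052.6 CPM. Without pool 1, Alox5 was at 36.6, 24.5, 32.3 and 1049.02 CPM. The 4 cells at 100 to 1000 CPM of Trpm5 had intermediate means of Chat (59.6 CPM), Il17rb (72.5), Ltc4s (72.7), Alox5 (231.8) and Hpgds (301.2), means of 2.25 CPM of Il25 and 3.22 CPM of Ptgs1, and no read of Alox5ap.

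**Figure D4:**
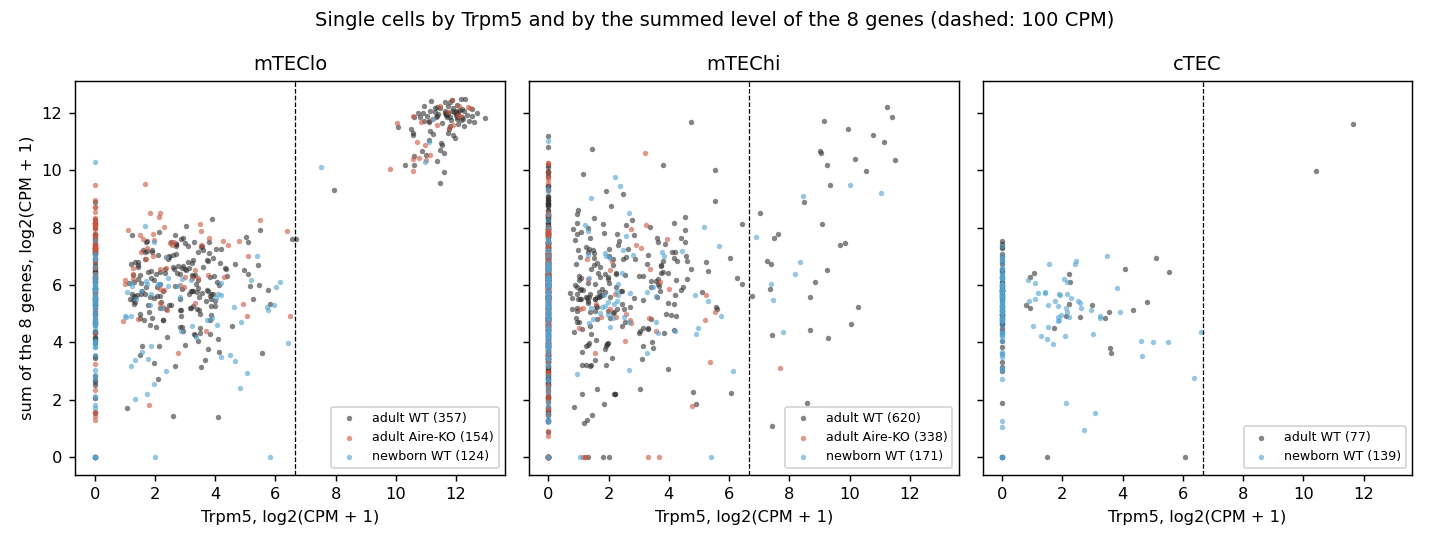
Each point is a cell, placed by Trpm5 (x axis) and by the sum of the 8 genes (y axis), both as log2(CPM + 1), for mTEClo, mTEChi and cTEC, coloured by age and genotype. In mTEClo the Trpm5-high cells, right of the dashed line at 100 CPM, form a compact cloud at the upper right, and in mTEChi they scatter over the whole height.

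Within the 86 adult WT Trpm5-high mTEClo cells the genes varied together to different degrees. As a description over cells that share pools and vary in depth, Pearson's r of log2(CPM + 1) over the 28 pairs ran from -0.00 (Alox5 with Ltc4s) to 0.65 (Alox5ap with Ptgs1), with a median of 0.36. Alox5 with Alox5ap gave 0.62 and Alox5 with Ptgs1 gave 0.61. Without pool 1 (76 cells) the pairs ran from 0.02 (Il25 with Ltc4s) to 0.62 (Alox5 with Alox5ap), with a median of 0.37, and Alox5 with Ltc4s gave 0.22. Over all 86 cells Ltc4s, the step after Alox5 and Alox5ap, gave 0.21 with Alox5ap and 0.06 with Ptgs1. Across all mTEClo cells and 24967 genes, Ly6g6f was among the 3 genes most like 7 of the 8 members, the exception being Alox5, and was the most like Chat (r = 0.95), Il25 (0.85) and Il17rb (0.74). Sh2d6 was the most like Alox5ap (0.92), Sh2d7 the most like Ptgs1 (0.89), Itprid1 the most like Ltc4s (0.79) and Rgs13 the most like Alox5 (0.68). For Hpgds it was Gm17147 (0.74), a pseudogene that lies inside Hpgds on the opposite strand and shares no exon bases with it. Because counting ignored strand, reads of Hpgds introns that fall on Gm17147 cannot be told apart from its own. Without pool 1, the most like gene was the same for 5 of the 8 and differed for Chat (Sh2d7, 0.96), Ltc4s (Gng13, 0.84) and Alox5 (1810046K07Rik, 0.77).

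The genes differed in how much of their RNA lay in Trpm5-high cells. These cells, of all sorts together, made up 8.03% of all cells and 7.81% of their reads. They held 97.7% of all Alox5ap reads, 91.9% of Il25, 88.5% of Chat, 80.1% of Ptgs1 and 78.8% of Alox5, but 55.2% of Il17rb, 53.1% of Ltc4s and 40.4% of Hpgds. Most of the rest of Il17rb, Ltc4s and Hpgds lay in other mTEChi cells, of which adult WT cells alone held 24.1, 26.3 and 24.7% of all reads of these genes. These cells made up 29.6% of all cells and held 31.7% of the reads of all genes, so that their share of each of the 3 genes lay below their share of cells. With adult WT mTEClo pool 1 left out, the Trpm5-high cells held 82.3% of Alox5 reads, and the other 7 shares moved by less than 1 percentage point.

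**Figure D5:**
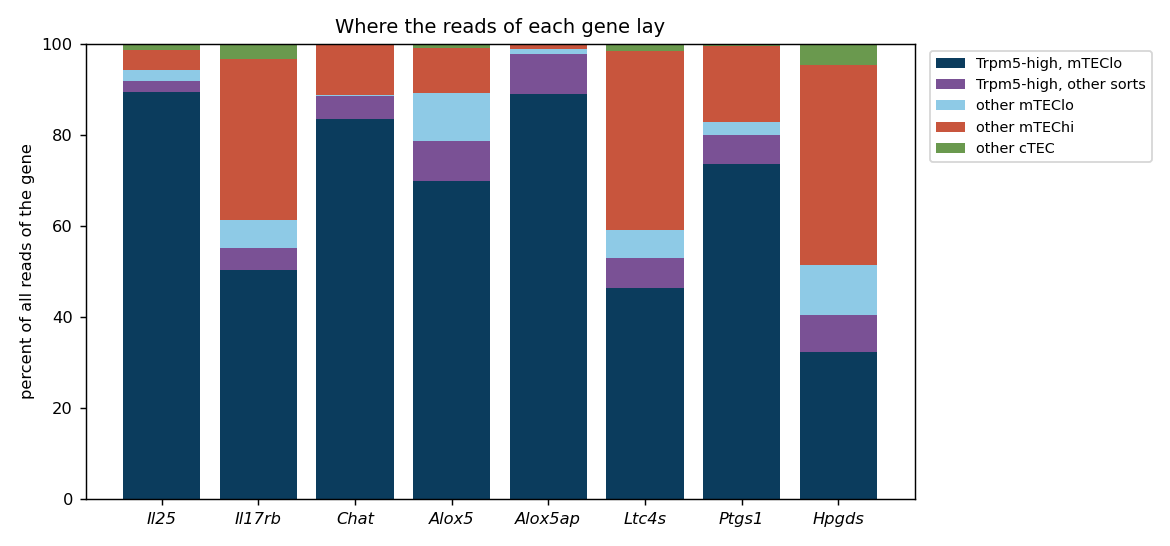
Percent of all reads of each gene over all cells (y axis) by the kind of cell that held them, with 1 bar per gene and each bar adding up to 100. Alox5ap, Il25 and Chat lie mostly in Trpm5-high cells (88.5 to 97.7%), which hold 40.4 to 55.2% of Hpgds, Ltc4s and Il17rb.

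Outside the Trpm5-high cells, single genes of the group reached 100 CPM in separate cells. In other adult WT mTEClo cells this was true of Alox5 in 41 cells (15.1%), Hpgds in 7, Il17rb in 3, Ptgs1 in 2 and Alox5ap in 1, and of Il25, Chat and Ltc4s in none. Nearly all of the Alox5 cells were in pool 1, without which Alox5 did so in 2 of 64 cells, Hpgds in 3, Il17rb in 2, and Ptgs1 and Alox5ap in 1 each. In other Aire-KO mTEClo cells it was true of Alox5 in 32 cells (24.4%) and of Hpgds in 25 (19.1%), with 11 cells holding both. Alox5ap, the partner of Alox5 in leukotriene synthesis, reached 100 CPM in none of these Aire-KO cells, which allows a share of up to 2.29%.

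In other adult WT mTEChi cells, Hpgds reached 100 CPM in 65 cells (11.1%), Il17rb in 41, Ltc4s and Ptgs1 in 16 each, Chat in 14 and Alox5 in 9, and Il25 and Alox5ap in none. The 14 Chat cells came from 3 pools, held 93.4% of the Chat reads of all such cells and had a median of 1592.8 CPM of Aire, the regulator that lets mTEChi cells transcribe genes of other tissues, against 1057.9 CPM over all other adult WT mTEChi cells. The cells at 100 CPM of Ptgs1 had a median of 1180.8 CPM of Aire, those of Alox5 703.99, Il17rb 640.9, Ltc4s 345.8 and Hpgds 240.5 CPM. In other Aire-KO mTEChi cells Chat reached 100 CPM in 0 cells, which allows a share of up to 0.89%, while Hpgds did so in 31, Ptgs1 in 10, Il17rb in 7, and Alox5 and Ltc4s in 4 each. Of these adult WT cells 5 (0.8532%) held 3 or more of the 8 genes at 100 CPM, and of the Aire-KO cells 2 (0.5935%) did. The difference in the share of Chat cells between the genotypes has 1 Aire-KO pool behind it and was not tested.

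Trpm5-high cells of the mTEChi sort differed from those of mTEClo in what they held. The 34 adult WT cells had a median of 4 of the 8 genes with a read, and 6 of them held all 8. At 100 CPM they held a median of 1 gene, and 13 of 34 at least 3. Those with Pou2f3 at 10 CPM or more (16 cells) had a median of 6.5 genes and 1451.05 CPM of the 8 in sum, against 3 genes and 62.2 CPM in the 18 with less Pou2f3. Trpm5 itself was lower in these cells, at 951.5, 1082.9 and 412.6 CPM in pools 1, 3 and 4, against 2556 to 3306 CPM in the 3 mTEClo pools.

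Per pool, Chat was at 48.1, 62.2 and 0.287 CPM in the Trpm5-high cells of mTEChi pools 1, 3 and 4, against 276.02 to 498.2 CPM in mTEClo, and Alox5 at 399.98, 428.8 and 6.61 CPM against 927.98 to 1149.7 CPM. No pool of mTEChi reached the lowest of mTEClo for either gene, and for how many of all genes this held was not counted. A fit over these 6 sums, chosen after the data were seen, gave log2 fold changes below 0 for all 8 genes, from -4.10 ± 1.17 for Il25 (edgeR adjusted p = 0.095) and -3.46 ± 0.82 for Ptgs1 (0.0623) to -1.003 ± 0.34 for Hpgds (0.14). None of the 8 was called, while 3.2% of 18975 genes were called higher and 1.16% lower (4438 genes at an unadjusted p under 0.05). DESeq2 called 4 of the 8, among 11.59% of all genes higher and 5.107% lower, and limma on the mean over cells called all 8, among 9.065% higher and 7.162% lower. Without mTEChi pool 4, which has 5 Trpm5-high cells, 4 were called (1.075% of all genes lower), without mTEChi pool 1, 1 (0.712%), and without mTEClo pool 1, none (0.04717%). In the same cells the 8 mast cell markers summed to 870.5, 795.1 and 1341.5 CPM in mTEChi pools 1, 3 and 4, led by Hdc in pools 1 and 4 and by Kit in pool 3, with Cpa3 at 0 in all 3, and their part in the difference was not tested. Aire had a median of 858.02 CPM in the Trpm5-high adult WT mTEChi cells, and 73.5% of them held 100 CPM or more of it. In the Trpm5-high adult WT mTEClo cells the median was 3.34 CPM and the share 11.6%. In the other adult WT mTEChi cells they were 1057.9 CPM and 87.5%. The part of Aire in the difference was not tested. The 9 Trpm5-high newborn mTEChi cells held at most 5 of the 8 genes.

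The last comparison asked whether Aire-KO changes the genes within Trpm5-high mTEClo cells, so that the share of such cells does not enter. The Aire-KO pool (23 cells) lay below all 3 adult WT pools (86 cells) for Il17rb, Ltc4s and Ptgs1, and inside their range for the other 5. For how many of all genes the Aire-KO pool lay below all 3 was not counted. Ptgs1 gave a log2 fold change of -0.66 ± 0.24, Ltc4s -0.66 ± 0.25, Il25 -0.90 ± 0.76, Il17rb -0.35 ± 0.23, Chat -0.26 ± 0.39, Alox5ap -0.14 ± 0.32, Alox5 -0.12 ± 0.24 and Hpgds 0.12 ± 0.28. None was called at an edgeR adjusted p of 0.998, and neither was any of 22702 genes (0%; 4.599% at an unadjusted p under 0.05, and 0.1806% called higher and 0.4889% lower by DESeq2). With 4 sums and 2 residual degrees of freedom the precision was low. Without adult WT pool 1 none of the 8 was called either. All 23 Aire-KO cells held at least 6 of the 8 genes, and 22 of 23 held at least 3 at 100 CPM.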

How the data were processed

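Single thymic epithelial cells had been profiled by RamDA-seq without molecular identifiers. Per the study's methods and processing notes, the authors trimmed reads with fastp 0.20.0, aligned them to GRCm38 with STAR 2.7.3a, removed low-quality alignments with SAMtools 1.9 and duplicates with Picard 2.21.1, and counted reads per Ensembl gene with HTSeq 0.11.2 without strand. The deposited values are raw counts per gene and cell, in which cells of low depth had been left out by the authors. How the runs of the 168 cells sequenced more than once were combined is not given in the sources used here. A deposited table of normalized scores was not used.

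The 1980 cells fell into adult WT mTEClo (217, 74 and 66 cells in pools 1 to 3), adult WT mTEChi (444, 12, 82 and 82 in pools 1 to 4), Aire-KO mTEClo (154) and mTEChi (338), newborn WT mTEClo (124), mTEChi (171) and cTEC (139) and adult WT cTEC (77); 113 of 635 mTEClo cells and 159 of all cells were Trpm5-high. Cells with the same group, age and sex labels were summed into pools, and Trpm5-high cells (100 CPM or more) and other cells into separate sums of at least 5 cells. Sums were tested with edgeR 4.0.16 (R 4.3.3; quasi-likelihood, TMM, filterByExpr) with Benjamini-Hochberg adjustment over all genes, the split of mTEClo with pool as a block. A call needed an adjusted p under 0.05 and a fold of 2 or more. Groups of 1 pool were assumed to vary like the others. The steps were tested on simulated data. Alternatives used DESeq2 1.42.0, limma 3.58.1, other limits, units and left-out pools. Named were the 8 genes, Trpm5, the 3 called genes of each list with the largest change, and the 3 genes most like each of the 8 by Pearson's r of log2(CPM + 1) among genes read in at least 5% of mTEClo cells; other list members called were named after their values were seen. Some results of the marker lists are not reported here. The 8 genes and all lists were chosen with earlier results of these data known. Intervals (95%, exact binomial) and limits from 0 cells (3 counts) cover counting error only.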

Additional observations from a re-analysis of the deposited data

Results flagged for a closer look

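Within groups of 4 pools, 16 sets of values were examined for a pool far from the rest, of which chance gives about 1 in 20, or 5%, and 2 were found. Ltc4s was lowest in adult WT mTEChi pool 2, the pool of 12 cells, at 5.51 CPM against 12.3 to 13.5 CPM in the other 3 pools. Il25 had its lowest log2 ratio of Trpm5-high to other mTEClo cells in the Aire-KO pool, at 4.99 against 7.60 to 7.87 in the 3 adult WT pools. The test of that difference gave -2.79 ± 0.44 on the log2 scale, with an unadjusted edgeR p of 0.00196 that did not pass after adjustment over all genes. It was 1 of 24 such differences tested after the data were seen, and 0 of them passed.

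Outside the comparisons, the 2 Trpm5-high cells of adult WT cTEC held 3008 reads of the 8 genes, with 7 and 8 of the genes found and 1968.3 CPM in sum, against 51.1 CPM in the other 75 adult cTEC cells.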

How the results depend on the processing

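In the split of mTEClo by Trpm5, all 8 genes were called in each alternative (8 to 8 without a pool) except the split by Pou2f3 at 10 CPM, which called 3 and lowered the median number of the genes per cell from 8 to 4. Between adult WT mTEChi and mTEClo, 0 to 8 genes were called without a pool and 1 with equal weight per cell, in place of 6. Between Aire-KO and WT mTEChi, DESeq2 called 1 and plates called 1, in place of 0. Between newborn and adult mTEClo, DESeq2 called 1, equal weight per cell 1, plates 7, and fits without a pool 0 to 1, in place of 0. For Trpm5-high cells of mTEChi against mTEClo, in place of 0, DESeq2 called 4, no filter on low counts 1, a Trpm5 limit of 200 CPM 1, the Pou2f3 split 5, thinning 2, equal weight per cell 8, and fits without a pool 0 to 4. In that comparison the main fit called 3.2% of all genes higher and 1.16% lower. DESeq2, the Pou2f3 split, thinning and equal weight per cell called larger shares of all genes in both directions. Their added calls among the 8 genes thus came together with added calls over all genes. What part of them was particular to the 8 genes was not tested. The fits with no filter and with the 200 CPM limit called smaller shares in both directions. By share of cells with 5 or more reads, 5 in place of 8 genes were highest in adult WT mTEClo. In each case the cause was not tested.

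Signs turned only for values that were not called, all on the log2 scale. In Aire-KO against WT mTEClo, Hpgds was at -0.087 with RLE size factors and DESeq2, -0.038 with no filter, and -0.45 to 0.39 without a pool. In mTEChi, Hpgds was at 0.050 with no filter, 0.031 with plates and -0.24 to 0.19 without a pool, and Ptgs1 at -0.46 to 0.54. In newborn against adult mTEChi, Ptgs1 was at -0.014 with equal weight per cell and -0.034 to 0.96 without a pool, and Hpgds at -0.53 to 0.014. In Trpm5-high cells of Aire-KO against WT mTEClo, Alox5 was at 0.062 after thinning and 0.10 with equal weight per cell, Alox5ap at -0.31 to 0.025 without a pool, and Hpgds at -0.19 with the Pou2f3 split, -0.062 with equal weight per cell and -0.014 to 0.29 without a pool.

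No paired analysis was possible because the replicate numbers in the labels count cells within a group and do not tie samples of different groups together. Blocks came instead from other labels. The split by Trpm5 had the pool as a block, and all 8 genes were called with no such block too. With age and sex as a block, for the labels found in both sorts, 4 genes (Il25, Il17rb, Alox5ap and Ptgs1) in place of 6 were called between adult WT mTEChi and mTEClo, among 1.574% of 27766 genes higher and 0.8284% lower, and Chat and Alox5 did not pass. Newborn Trpm5-high mTEClo cells (4) were below the minimum of 5 cells per sum and their planned test was not run. Aire-KO and newborn groups had 1 pool per sort, so that genotype or age and pool cannot be told apart.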
